A study of Mus musculus with 6 samples.

Results

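The transcripts described here are a fixed set of 10 genes taken by symbol from the 20632 genes of the deposited table. They are the muscle ubiquitin ligase genes *Fbxo32* (atrogin-1), *Trim63* (MuRF1), *Trim54* (MuRF3), *Trim55* (MuRF2), *Fbxo30* (MUSA1), *Fbxo31* and *Fbxo40*, and the FOXO transcription factor genes *Foxo1*, *Foxo3* and *Foxo4*. Total RNA was sequenced from the hind limb muscles (tibialis anterior, extensor digitorum longus, gastrocnemius, soleus and quadriceps) of unexercised male C57BL/6 mice aged 3 months, with 1 library per mouse. The 3 Baf155WT mice carried floxed *Baf155* alleles without Cre, and the 3 Baf155ΔMF mice (labelled Baf155 -/-) carried the same floxed alleles with *MCK*-Cre. *MCK*-Cre is active in skeletal and cardiac muscle fibres, so the other cells of the muscle keep Baf155, a core subunit of the SWI/SNF chromatin remodeling complex. All 10 genes passed the filter on low counts, which left 12116 genes, and each had between 121 and 7211 counts in every mouse.

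Muscle protein is broken down largely by the ubiquitin-proteasome system, in which a ligase picks the substrate that is tagged. Atrogin-1 and MuRF1 are the ligases best known from wasting muscle, where their transcripts climb with fasting, disuse, denervation and glucocorticoids. FOXO factors drive both genes. Insulin and IGF1 act through AKT to phosphorylate FOXO proteins and keep them out of the nucleus, so the activity of FOXO factors is set mainly on the protein and can shift without a shift in their own transcripts. The comparison asks whether this set of transcripts differed in resting muscle that lacked Baf155.

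None of the 10 genes passed the test for a difference between the genotypes. The number with an adjusted p under 0.05 was 0 of 10 in edgeR's quasi-likelihood test, and 0 of 10 also had an unadjusted p under 0.05, as with DESeq2 and limma-voom. Over all genes tested, 3 genes (0.0248%) passed the adjusted limit and 7.95% the unadjusted limit (3.35% higher and 4.6% lower in Baf155ΔMF muscle). The log2 fold changes (Baf155ΔMF minus Baf155WT) lay between -0.12 for *Foxo3* and 0.29 for *Fbxo30*, with adjusted p-values of 0.624 to 0.994 from edgeR. In contrast, *Smarcc1*, which encodes Baf155, was at 23.4, 19.5 and 17.0 CPM (read counts scaled to library size with TMM factors) in Baf155WT muscle and at 7.05, 6.54 and 7.72 CPM in Baf155ΔMF muscle. With a log2 fold change of -1.49 ± 0.15 (standard error, SE) and an adjusted p of 0.00907 from edgeR, it passed, and the genotypes did not overlap. Between the mice whose titles begin with MS13 its log2 difference was -1.76.

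Sample titles carry a prefix (MS13, MS14 or MS15) of unstated meaning. MS13 holds 1 Baf155WT mouse (MS13-3) and 2 Baf155ΔMF mice (MS13-1 and MS13-2). The other Baf155WT mice are MS15-2 and MS15-3 and the remaining Baf155ΔMF mouse is MS14-2, and for these mice genotype cannot be told apart from prefix. The MS15 mice stood apart from the others in several respects. Macrophage and leukocyte markers (*Ptprc*, *Cd68*, *Adgre1*, *Csf1r* and *Cd163*) summed to 140 and 119 CPM in the MS15 mice, to 54.4 CPM in the MS13 Baf155WT mouse and to between 48.5 and 74.1 CPM in Baf155ΔMF mice. *Ttn*, which encodes the giant sarcomeric protein titin, was at 47541 and 37561 CPM in the MS15 mice and at 81290 CPM in the MS13 Baf155WT mouse. With the genes split by exon length into 4 equal groups, the median log2 difference (MS15 mice minus the 4 other mice) was 0.13 in the shortest group and -0.12 in the longest. MS14-2 also differed from the other mice. Its fibro-adipogenic and fibroblast markers (*Pdgfra*, *Dcn*, *Col1a1* and *Col3a1*) summed to 2092 CPM, against 1371 to 1877 CPM in the others. The difference of each ligase and FOXO gene is therefore given both over the 6 mice and between the MS13 mice alone. The MS13 value (1 Baf155WT and 2 Baf155ΔMF mice) is a difference of log2 CPM without a test. A fit with the title prefix as a covariate, where genotype rests on the same mice, is described at the end. Totals per mouse ranged from 8426022 to 12469335 counts. The myofibre markers *Acta1*, *Ckm*, *Ttn*, *Des*, *Myh4* and *Mb* together took 141180 to 186280 CPM in each mouse, and the atrial genes *Nppa* and *Myl7* were at or under 3 counts in every mouse except for *Nppa* in the MS13 Baf155WT mouse (0.583 CPM).

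The proximal promoter of *Trim63* is shown because it carries, next to each other, sequences that match the binding elements of FOXO factors and of the glucocorticoid receptor. The 250 bases that precede the annotated start of *Trim63* (RefSeq, GRCm38.p6, chr4:134314870-134315119, plus strand) are printed 5′ to 3′, with a palindromic glucocorticoid receptor element, the FOXO element that follows it and a TATA box in capitals.

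Trim63 promoter: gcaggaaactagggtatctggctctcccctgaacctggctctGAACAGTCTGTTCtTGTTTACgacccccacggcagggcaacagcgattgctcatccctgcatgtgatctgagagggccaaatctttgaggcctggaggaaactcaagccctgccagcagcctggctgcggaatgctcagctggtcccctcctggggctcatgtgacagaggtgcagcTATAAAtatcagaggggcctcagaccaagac

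The FOXO element was searched as TGTTTAC on both strands and lay 194 to 188 bases before the start. It was present in 3.65% of the 32851 RefSeq promoter windows of the same kind, which run from 250 bases before to 50 bases after each start. The glucocorticoid receptor element was searched as GAACA followed after any 3 bases by TGTTC, which reads the same on both strands, and lay 208 to 196 bases before the start. Of all windows, 19 (0.0578%) held it. TATAAA, which 13.6% of windows held, lay 31 to 26 bases before the start. Promoter windows were matched for 7 of the 10 genes (*Trim63*, *Trim54*, *Fbxo30*, *Fbxo31*, *Fbxo40*, *Foxo1* and *Foxo3*), in 8 windows because *Fbxo40* had a pair of starts. Among these 8 windows, each of the 3 motifs was found in that of *Trim63* alone. A match of letters is a description of the sequence and not evidence of binding.

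*Fbxo32* encodes atrogin-1, the F-box protein that directs an SCF ubiquitin ligase to substrates such as MyoD and the translation factor eIF3-f. It lies on chromosome 15 of GRCm38 from 58175879 to 58214932 on the minus strand (GENCODE M21). The Baf155WT mice had 659 (MS13-3), 552 (MS15-2) and 325 (MS15-3) CPM, and the Baf155ΔMF mice had 692 (MS13-1), 632 (MS13-2) and 359 (MS14-2) CPM. In each genotype 1 mouse was far below the others, and the genotypes overlapped almost completely. The means were 512 ± 171 CPM in Baf155WT and 561 ± 177 CPM in Baf155ΔMF muscle (SD, n = 3 mice per genotype). This gave a log2 fold change of 0.13 (95% interval -0.44 to 0.71, adjusted p = 0.896 from edgeR), an interval that reaches from 0.735-fold to 1.64-fold. Between the MS13 mice alone it was 0.01. The estimated counts of *Fbxo32* were not whole numbers in 5 of 6 mice, and its span overlaps the antisense gene *Gm15943* on the opposite strand. The spans of *Trim54*, *Trim55*, *Fbxo31* and *Foxo1* also overlap other annotated genes. Those on the same strand are *BC002189* for *Trim55* and *Gm38034* for *Foxo1*.

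*Trim63* encodes MuRF1, a RING-finger ligase of the sarcomere that binds titin and tags myosin and other thick-filament proteins, and it lies on chromosome 4 from 134315120 to 134329629 on the plus strand. It was at 296 (MS13-3), 316 (MS15-2) and 246 (MS15-3) CPM in Baf155WT mice and at 335 (MS13-1), 300.4 (MS13-2) and 220.4 (MS14-2) CPM in Baf155ΔMF mice. The lowest mouse of each genotype was the same as for *Fbxo32*. The means were nearly equal, at 286 ± 35.8 CPM in Baf155WT and 285 ± 58.7 CPM in Baf155ΔMF muscle (SD, n = 3 mice per genotype). This gave a log2 fold change of -0.0048 (95% interval -0.34 to 0.33, adjusted p = 0.994 from edgeR), and between the MS13 mice alone it was 0.10. The interval runs from 0.793-fold to 1.25-fold.

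**Figure D1:**
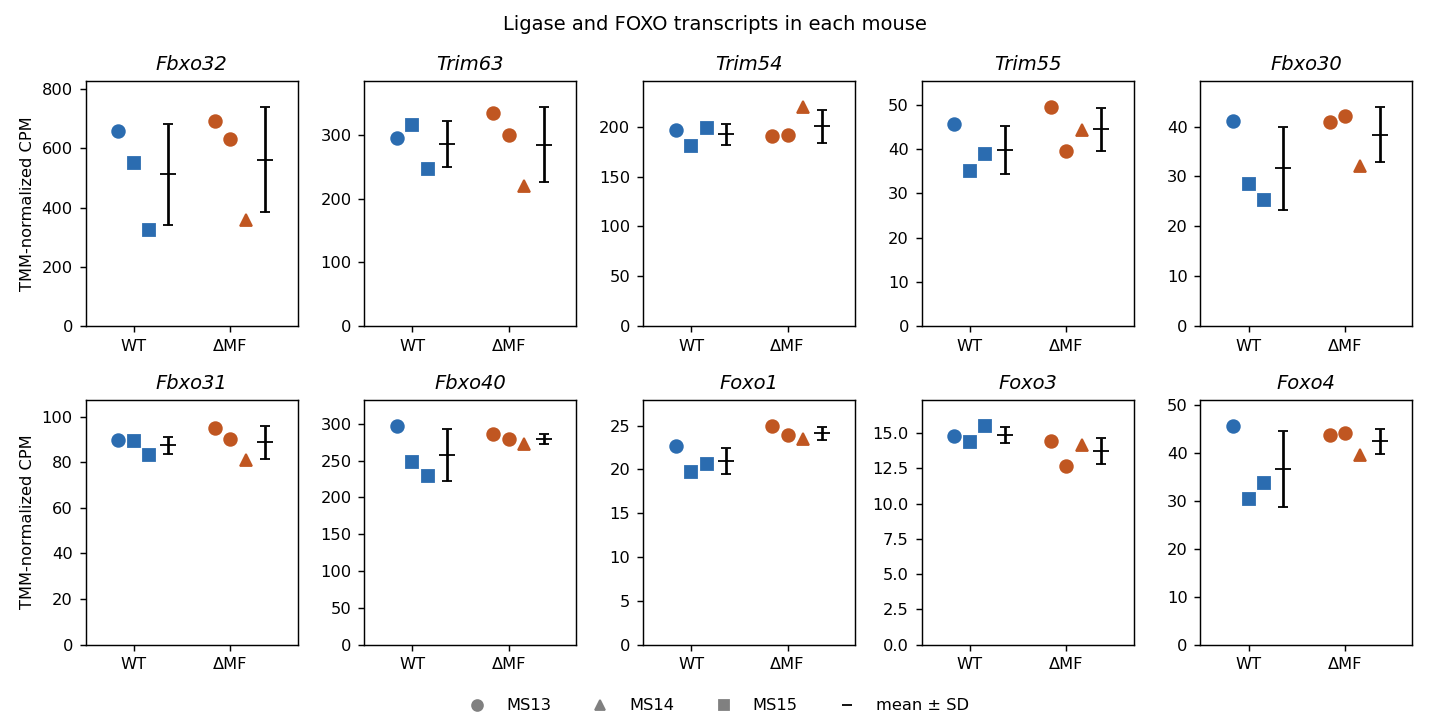
TMM-normalized CPM (y axes, each from 0) of the 10 genes in the 3 Baf155WT (WT, blue) and 3 Baf155ΔMF (ΔMF, orange) mice. Each point is 1 mouse, its shape gives the prefix of the sample title, and the black bar beside the points is the mean with the SD. The genotypes overlap in 9 genes, and *Fbxo32* ranges from 325 to 692 CPM across mice.

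The mouse-to-mouse range of *Fbxo32* was wider than any difference between the genotypes. The highest mouse was 2.03 times the lowest in Baf155WT and 1.93 times the lowest in Baf155ΔMF muscle. The SD within a genotype was 0.52 on the log2 scale, against a median of 0.13 over the 7714 genes with a mean of at least 10 CPM, and it exceeded that of 99% of these genes. The SD of *Trim63* was 0.26 and exceeded that of 91.5%, and that of *Fbxo30* was 0.30 and exceeded that of 94.8%. In contrast, *Foxo1* and *Foxo3* were among the steadier genes, with SDs of 0.08 each. The SDs of *Trim54* (0.10), *Fbxo31* (0.10) and *Fbxo40* (0.14) were near or below the median gene, and those of *Trim55* (0.18) and *Foxo4* (0.22) were above it.

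The genes whose profile across the 6 mice lay nearest to that of *Fbxo32* were *Ccdc57*, *Col19a1*, which encodes a collagen, and *Mal*, which encodes a membrane lipid-raft protein. Likeness was measured as the root mean square difference of log2 CPM after the mean of each gene was removed, and it was 0.09, 0.13 and 0.15. These genes are expressed far below *Fbxo32*, with means of 4.04, 3.96 and 1.64 CPM in Baf155WT muscle. Nearest to *Trim63* were *Qtrt1*, which encodes a tRNA-modifying enzyme, *Tusc5* and *1810030O07Rik*, at 0.05, 0.06 and 0.06. They too are expressed far below it, with means of 4.53, 3.51 and 17.1 CPM in Baf155WT muscle. These genes are the closest of all genes tested over 6 values each, and whether any is regulated together with *Fbxo32* or *Trim63* was not tested.

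**Figure D2:**
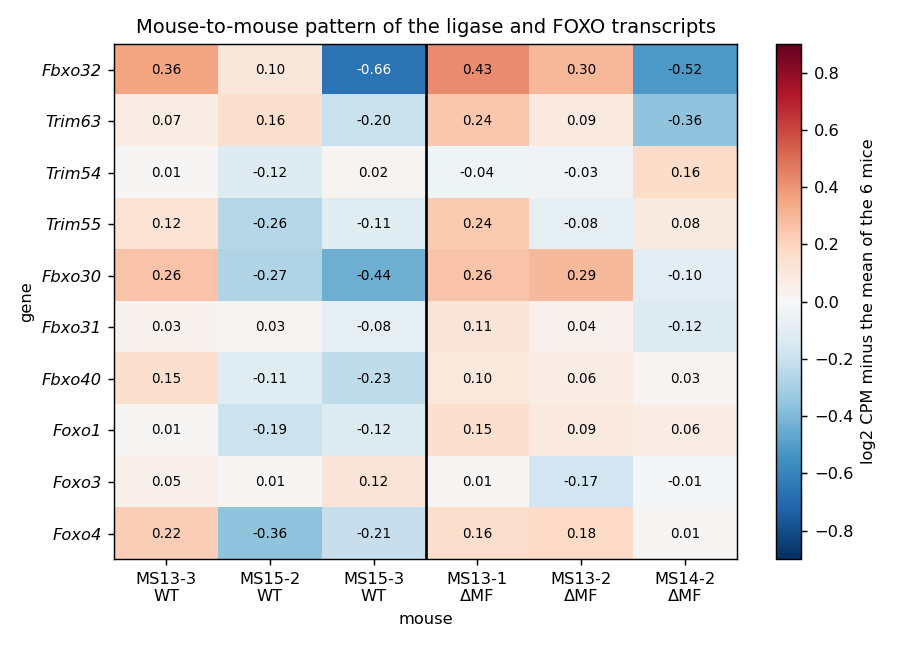
Colour and number in each cell give the log2 CPM of a gene (rows) in a mouse (columns) minus its mean over the 6 mice. The 3 Baf155WT mice stand left of the black line and the 3 Baf155ΔMF mice right of it, and the lowest values of *Fbxo32* are -0.66 in MS15-3 and -0.52 in MS14-2.

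The other F-box genes were not called either. *Fbxo30* encodes MUSA1, a ligase that BMP signaling restrains in innervated muscle, and lies on chromosome 10 from 11281330 to 11298052 on the plus strand. It was at 41.1 (MS13-3), 28.5 (MS15-2) and 25.3 (MS15-3) CPM in Baf155WT mice and at 41.0 (MS13-1), 42.1 (MS13-2) and 32.0 (MS14-2) CPM in Baf155ΔMF mice. The low values came from the MS15 mice, and the MS13 Baf155WT mouse matched the MS13 Baf155ΔMF mice. Its log2 fold change of 0.29 ± 0.17 (standard error) was the largest of the 10 genes (adjusted p = 0.657 from edgeR), and its interval ran from 0.936-fold to 1.59-fold. Between the MS13 mice alone it was 0.01.

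*Fbxo40* encodes a muscle F-box protein known for the degradation of the insulin receptor substrate IRS1, and lies on chromosome 16 from 36963460 to 36990467 on the minus strand. It was at 297 (MS13-3), 248 (MS15-2) and 229 (MS15-3) CPM in Baf155WT mice and at 286 (MS13-1), 279.5 (MS13-2) and 272 (MS14-2) CPM in Baf155ΔMF mice. All 3 Baf155ΔMF mice lay between the MS13 and the MS15 Baf155WT mice. The log2 fold change was 0.12 (95% interval -0.12 to 0.35, adjusted p = 0.760 from edgeR), and it was -0.07 between the MS13 mice alone. *Fbxo31*, whose product targets cyclin D1, lies on chromosome 8 from 121549440 to 121578806 on the minus strand and was at 87.5 ± 3.77 CPM in Baf155WT and 88.8 ± 7.27 CPM in Baf155ΔMF muscle. Its log2 fold change of 0.02 had an interval from 0.882-fold to 1.17-fold (adjusted p = 0.953 from edgeR), and it was 0.05 between the MS13 mice alone.

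MuRF2 and MuRF3 resemble MuRF1 and associate with microtubules, titin and the M-band as fibres mature. *Trim54* (MuRF3, chromosome 5 from 31116712 to 31137630, plus strand) was at 197, 181 and 199 CPM in Baf155WT mice and at 190.4, 192 and 219.5 CPM in Baf155ΔMF mice, in the order of mice used above. Its highest value was in MS14-2, where *Trim63* and *Fbxo32* had their lowest values among Baf155ΔMF mice. The log2 fold change of *Trim54* was 0.06 (95% interval -0.15 to 0.27, adjusted p = 0.864 from edgeR), and it was -0.05 between the MS13 mice alone. *Trim55* (MuRF2, chromosome 3 from 19644474 to 19692421, plus strand) was at 45.7, 35.0 and 38.8 CPM in Baf155WT and at 49.4, 39.6 and 44.3 CPM in Baf155ΔMF mice, with a log2 fold change of 0.16 (95% interval -0.11 to 0.43, adjusted p = 0.706 from edgeR). The genotypes overlapped, and the difference was -0.05 between the MS13 mice alone.

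Among the FOXO factors, *Foxo1* was the gene of the 10 in which the genotypes did not overlap. It lies on chromosome 3 from 52268336 to 52353221 on the plus strand and was at 22.6 (MS13-3), 19.7 (MS15-2) and 20.6 (MS15-3) CPM in Baf155WT mice and at 25.0 (MS13-1), 23.9 (MS13-2) and 23.5 (MS14-2) CPM in Baf155ΔMF mice. Over all genes tested the genotypes did not overlap in 10.8% (5.2% higher and 5.57% lower in Baf155ΔMF muscle), so 1 gene of 10 is near the background. For *Foxo1* the log2 fold change was 0.20 ± 0.10 (SE, adjusted p = 0.624 and unadjusted p = 0.0728 from edgeR), and it was 0.11 between the MS13 mice alone. Its interval ran from 0.985-fold to 1.35-fold.

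*Foxo3*, on chromosome 10 from 42181841 to 42276755 on the minus strand, was at 14.8, 14.4 and 15.5 CPM in Baf155WT mice and at 14.4, 12.7 and 14.2 CPM in Baf155ΔMF mice. Its log2 fold change was -0.12 (95% interval -0.36 to 0.13, adjusted p = 0.769 from edgeR), with -0.13 between the MS13 mice alone. *Foxo4*, on the X chromosome from 101254528 to 101260873 on the plus strand, was at 45.6, 30.4 and 33.7 CPM in Baf155WT mice and at 43.6, 44.1 and 39.4 CPM in Baf155ΔMF mice. As in *Fbxo30*, the MS15 mice were the low ones. The log2 fold change of *Foxo4* was 0.22 (95% interval -0.09 to 0.53, adjusted p = 0.674 from edgeR), and it was -0.06 between the MS13 mice alone. *Foxo6*, the remaining family member, was low in every mouse, at 3.39 ± 0.100 CPM in Baf155WT and 4.80 ± 1.42 CPM in Baf155ΔMF muscle (log2 fold change 0.50, adjusted p = 0.622 from edgeR, and 0.22 between the MS13 mice alone).

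**Figure D3:**
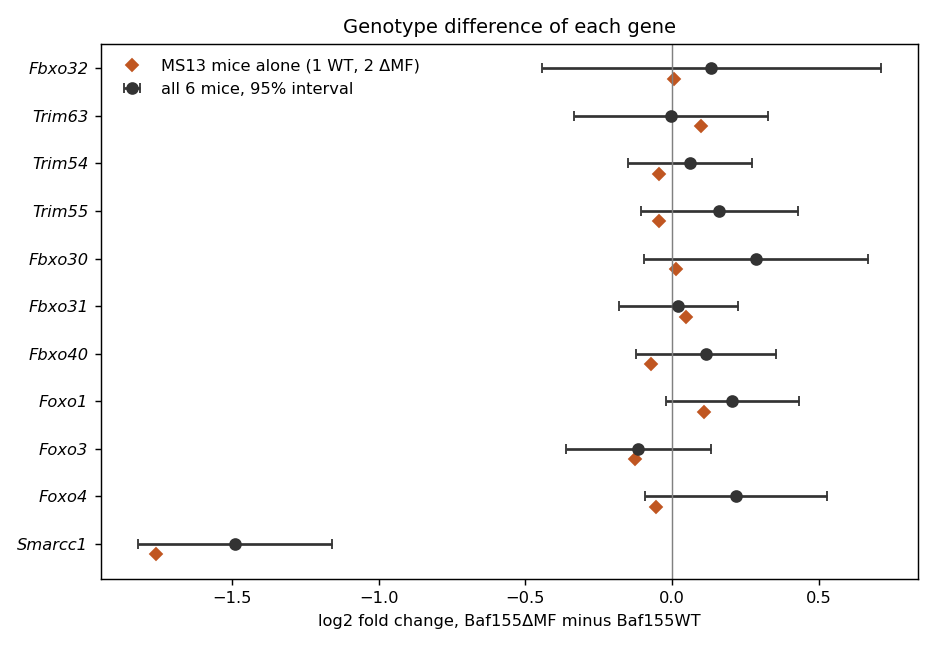
Log2 fold change (x axis, Baf155ΔMF minus Baf155WT) of each gene from edgeR over the 6 mice with its 95% interval (black), and between the MS13 mice alone (orange diamonds). All 10 intervals include 0, while that of *Smarcc1* runs from -1.82 to -1.16.

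Levels were compared between genes per kilobase of annotated exon (GENCODE M21, union of exons). *Trim54* had the highest level, with a median over the 6 mice of 135 CPM per kilobase, and was followed by *Trim63* (105), *Fbxo32* (84.9), *Fbxo40* (50.0), *Fbxo31* (16.4), *Trim55* (15.8), *Foxo4* (11.9), *Fbxo30* (7.03), *Foxo1* (2.66) and *Foxo3* (1.90). In each neighbouring pair but 1, the higher gene was higher within all 6 mice. The exception was *Fbxo31* and *Trim55*, whose order held in 3 of 6 mice. The ranges over mice also overlapped between *Trim63* and *Fbxo32* and between *Fbxo32* and *Fbxo40*. The MuRF1, MuRF3 and atrogin-1 genes stood above all 3 FOXO genes in every mouse. These ranks take all annotated exons as transcribed, and the isoforms in use were not measured.

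In 5 of the 10 genes (*Trim55*, *Fbxo30*, *Fbxo40*, *Foxo1* and *Foxo4*) both MS15 mice lay below the 4 other mice, a pattern found in 17.1% of all genes tested. The MS15 mice are 2 of the 3 Baf155WT mice, so the comparison depended on the MS13 Baf155WT mouse. Without it, *Fbxo30* had a log2 fold change of 0.52 (adjusted p = 0.023 from edgeR) and *Foxo4* of 0.41 (adjusted p = 0.0271 from edgeR). In that fit 955 of 12288 genes (7.77%) passed an adjusted p under 0.05 in either direction, and 3.6% passed with a higher level in Baf155ΔMF muscle. *Trim55*, *Fbxo40* and *Foxo1* had unadjusted p-values of 0.0292, 0.0208 and 0.0303 there, at a limit that 23.8% of genes passed (12% with a higher level in Baf155ΔMF muscle). Without both MS15 mice, an alternative chosen after the data were seen that leaves 1 Baf155WT mouse against 3 Baf155ΔMF mice, *Fbxo30* and *Foxo4* had log2 fold changes of -0.10 and -0.11. The macrophage marker sum and the length pattern described above separate the same mice, and their part in these values was not tested beyond the fit with the length trend removed, in which *Fbxo30* kept a log2 fold change of 0.29 (adjusted p = 0.709) and *Foxo4* had 0.25 (adjusted p = 0.701, both from edgeR). The other 5 fits with 1 mouse left out gave 0 of 10 genes.

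**Figure D4:**
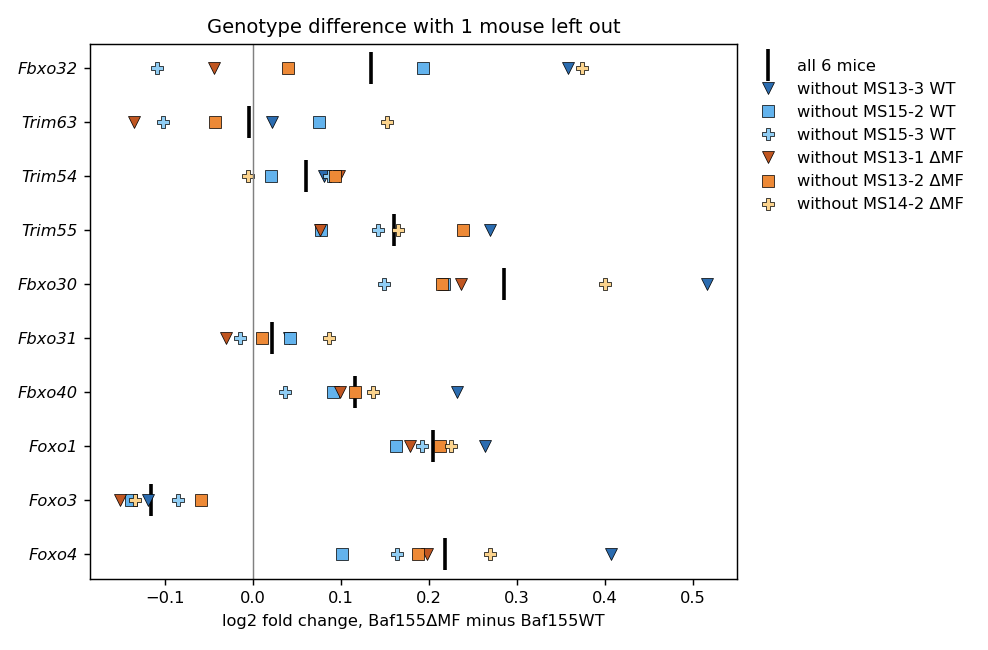
Log2 fold change (x axis, Baf155ΔMF minus Baf155WT) of each gene with all 6 mice (black line) and with each mouse left out in turn (symbols). The value for *Fbxo30* goes from 0.29 to 0.52 and that for *Foxo4* from 0.22 to 0.41 without MS13-3, and those of *Fbxo32* and *Trim63* fall on both sides of 0.

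The genes around the ligases were examined in 5 lists of 90 tested genes, none of which had an adjusted p under 0.05 (smallest adjusted p = 0.601 from edgeR). At an unadjusted p under 0.05 there were 7 of 90 genes (7.78%), near the 7.95% of all genes. The genotypes did not overlap in 9 of 90 genes, against 10.8% of all genes. The median log2 fold change was 0.12 for the 10 ligase and FOXO genes and -0.001 for all genes tested. The median of the 10 genes was -0.0154 in a fit that included the prefix, where genotype rested on the MS13 mice alone. It was -0.0732 without both MS15 mice and ranged from 0.061 to 0.247 with 1 mouse left out.

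Of 21 FOXO targets and other genes of the atrophy program, 0 were higher and 2 lower in Baf155ΔMF muscle at an unadjusted p under 0.05. For all genes these shares were 3.35% and 4.6%. The median log2 fold change of the 21 genes was -0.03. Among the lower genes, the metallothionein gene *Mt1* had a log2 fold change of -0.47 (adjusted p = 0.611 from edgeR, and -0.29 between the MS13 mice alone), with 9.52 ± 1.85 CPM in Baf155WT and 6.94 ± 1.66 CPM in Baf155ΔMF muscle. *Mt2* (log2 fold change -0.90) and *Gadd45a* (-0.29), which encodes a growth-arrest protein of denervated muscle, followed with adjusted p-values of 0.627 each from edgeR, and with -0.06 and -0.03 between the MS13 mice alone. *Map1lc3b*, which encodes the autophagosome protein LC3B, was at 166, 179 and 179 CPM in Baf155WT and at 170, 170 and 174 CPM in Baf155ΔMF mice.

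Upstream of FOXO, 1 of 20 genes was higher and 1 was lower at an unadjusted p under 0.05 (3.35% and 4.6% of all genes). *Acvr2b*, which encodes the activin receptor for myostatin, was at 36.1 ± 7.92 CPM in Baf155WT and 48.3 ± 11.2 CPM in Baf155ΔMF muscle (log2 fold change 0.42, adjusted p = 0.611 from edgeR, and 0.22 between the MS13 mice alone). *Sgk1*, which encodes a kinase that phosphorylates FOXO factors, was at 293, 297 and 387 CPM in Baf155WT and at 269, 272 and 274 CPM in Baf155ΔMF mice. The genotypes did not overlap in *Sgk1*, but its log2 fold change of -0.26 had an adjusted p of 0.620 from edgeR and was -0.11 between the MS13 mice alone. The insulin receptor gene *Insr* had a log2 fold change of 0.31 (adjusted p = 0.622 from edgeR), and 0.08 between the MS13 mice.

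Among 17 other ligases of muscle, and among 16 genes of the ubiquitin-activating, SCF core and conjugating steps, 0 had an unadjusted p under 0.05 in either direction. *Asb2*, a cullin-ring substrate receptor of muscle, came nearest, at 1060.5 ± 108 CPM in Baf155WT and 910 ± 50.8 CPM in Baf155ΔMF muscle (log2 fold change -0.22, unadjusted p = 0.0652, adjusted p = 0.622 from edgeR), and its difference was -0.03 between the MS13 mice alone. The giant ligases *Huwe1* and *Ubr4* had log2 fold changes of 0.22 and 0.26 over the 6 mice (-0.09 and -0.12 between the MS13 mice). *Fbxl22*, an F-box gene of the sarcomere, had -0.50 over the 6 mice and -0.16 between the MS13 mice. It was low, at 3.40 ± 1.52 CPM in Baf155WT and 2.43 ± 0.94 CPM in Baf155ΔMF muscle (adjusted p = 0.692 from edgeR). Its estimated counts were not whole numbers in any of the 6 mice. The SCF subunit genes *Rbx1* and *Skp1a* had log2 fold changes of -0.17 and -0.10, the ubiquitin-like modifier gene *Nedd8* -0.18 and the cullin exchange factor gene *Cand1* -0.10, with adjusted p-values from 0.635 to 0.757 from edgeR. Between the MS13 mice alone the differences were -0.07 for *Rbx1*, 0.02 for *Skp1a*, -0.14 for *Nedd8* and -0.16 for *Cand1*. The 16 genes of this list spanned log2 fold changes from -0.18 to 0.09.

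Of 16 substrates and partners of the ligases, 2 were higher and 1 was lower at an unadjusted p under 0.05. Of all genes, 3.35% were higher and 4.6% lower at that limit. The fast myosin heavy chain gene *Myh1* was at 5732 (MS13-3), 4034 (MS15-2) and 4810 (MS15-3) CPM in Baf155WT mice and at 7684 (MS13-1), 6341 (MS13-2) and 6466 (MS14-2) CPM in Baf155ΔMF mice. The genotypes did not overlap, and the log2 fold change of *Myh1* was 0.49 ± 0.15 (SE, adjusted p = 0.601 from edgeR), with 0.28 between the MS13 mice alone. *Myh2* had a log2 fold change of 0.38 and *Mybpc1*, the slow myosin-binding protein C gene, of 0.24 (adjusted p = 0.601 and 0.622 from edgeR), with 0.07 and 0.11 between the MS13 mice alone. The estimated counts of *Myh1* and *Myh2*, which belong to a family of similar genes, were not whole numbers in any of the 6 mice, and their levels are uncertain to that extent. *Myod1*, a target of atrogin-1, was at 25.4 ± 8.33 CPM in Baf155WT and 17.8 ± 2.71 CPM in Baf155ΔMF muscle (log2 fold change -0.52, adjusted p = 0.611 from edgeR), and its difference was 0.04 between the MS13 mice alone.

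**Figure D5:**
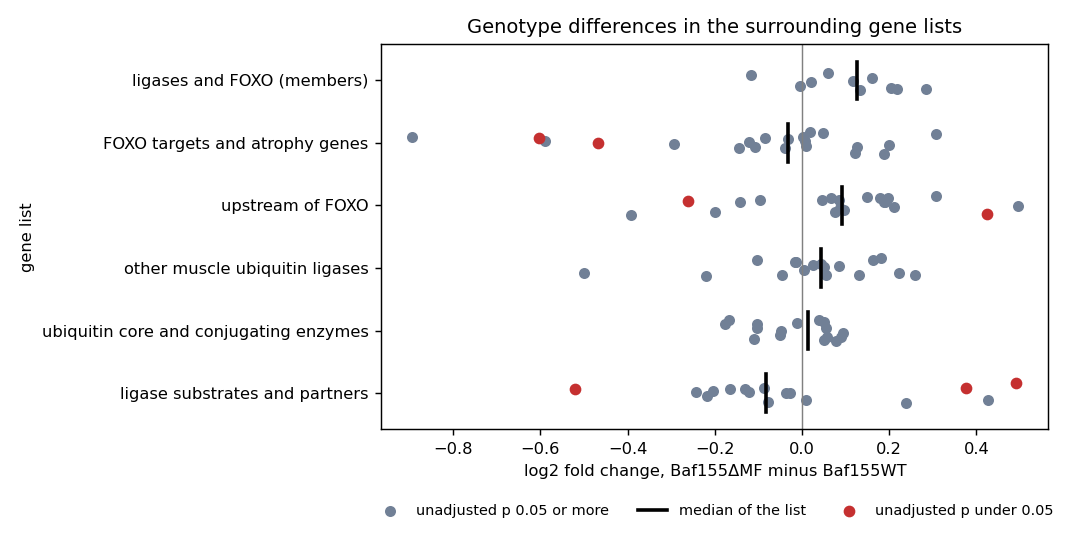
Log2 fold change (x axis, Baf155ΔMF minus Baf155WT) of the 10 ligase and FOXO genes and of the genes of 5 surrounding lists (rows), with 1 point per gene. Red points have an unadjusted p under 0.05 (0 of 10 and 7 of 90), black bars are list medians, and the vertical scatter within a row carries no value.

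The cells that share the muscle with the fibres were followed by their markers. At an unadjusted p under 0.05 from edgeR, the limit that 7.95% of all genes passed, 2 endothelial (*Pecam1* and *Kdr*) and 1 pericyte marker (*Rgs5*) were higher in Baf155ΔMF muscle, while all 5 macrophage and leukocyte, 1 adipocyte (*Adipoq*), 1 fibroblast (*Dcn*) and 1 red blood cell marker (*Alas2*) were lower. None of these passed after adjustment. All 4 endothelial markers had positive log2 fold changes and summed to 192 to 249 CPM in Baf155WT and 251 to 273 CPM in Baf155ΔMF mice. The sum of 249 CPM was that of the MS13 Baf155WT mouse. Between the MS13 mice alone the differences were 0.07 for *Pecam1*, -0.01 for *Cdh5*, 0.29 for *Kdr* and 0.001 for *Tek*. All 5 macrophage and leukocyte markers had negative log2 fold changes, from -1.27 to -0.81 over the 6 mice, and ranges of 54.4 to 140 and 48.5 to 74.1 CPM. Between the MS13 mice alone these markers lay between -0.39 (*Cd163*) and 0.19 (*Ptprc*). Adipocyte markers summed to 32.3 to 65.6 and 28.2 to 42.1 CPM, satellite cell markers to 22.9 to 24.6 and 21.8 to 25.1 CPM, and markers of fibro-adipogenic progenitors and fibroblasts to 1529 to 1877 and 1371 to 2092 CPM. Schwann cell markers summed to 9.49 to 17.7 and 11.7 to 18.3 CPM, smooth muscle and pericyte markers to 559 to 731 and 689 to 829 CPM, red blood cell markers to 192 to 356 and 113 to 268 CPM, and heart muscle markers to 1.43 to 3.69 and 2.46 to 2.80 CPM. Of the red blood cell markers *Hbb-b1* was at or near 0 in every mouse. In RNA from whole muscle, fewer cells of a type and less RNA per cell cannot be told apart, and the part of these markers in the values of the ligase and FOXO genes was not tested.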

How the data were processed

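Gene-level RNA-seq data from whole hind limb muscles of 3 Baf155WT and 3 Baf155ΔMF mice were analysed. The deposited values are estimated counts per gene symbol, which the authors made with the tools in their processing notes and did not normalize, in 1 column per mouse beside a row total that was not used. These notes name CASAVA 1.8.2, cutadapt 1.10, Bowtie2 2.2.7, TopHat2 2.1.1, RSEM 1.2.30 and limma and the builds mm10 and GRCm38. The annotation and strand setting are not given in the sources used here. Libraries were stranded. The estimates had a fractional part in at least 1 mouse for 14.1% of 20632 genes and were rounded.

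Counts were analysed in R 4.3.3 with edgeR 4.0.16 (filterByExpr with a minimum count of 10 and a minimum total of 15, TMM factors from 0.958 to 1.05, quasi-likelihood test, Benjamini-Hochberg adjustment over 12116 genes). edgeR's common biological coefficient of variation came to 0.111. The fit was tested on simulated data. Totals were 8426022 to 12469335 counts per mouse, so that 3 counts correspond to 0.23 to 0.351 CPM, which covers counting error only. Standard errors and 95% intervals were taken from the quasi-likelihood F statistic, and MS13 differences from log2 CPM with a prior count of 2. An exact permutation test of 3 against 3 mice cannot give a p under 0.1 and was not used. Mice are separate animals by the labels.

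Named genes are the 10 genes, *Smarcc1*, *Foxo6*, up to 4 genes with the smallest unadjusted p in each list, and the 3 nearest profiles to *Fbxo32* and to *Trim63*. *Map1lc3b* was named after its values were seen. A gene of the FOXO target list that this rule names is not reported here. The genes and lists were chosen with earlier results of these data known. Positions and exon lengths are from GENCODE M21 on GRCm38, with a length for 97.8% of genes tested. The alternatives tried were other scalings and filters, limma-voom (limma 3.58.1), DESeq2 1.42.0, a robust fit, the title prefix as a covariate and each mouse left out, with 2 added after seeing the data.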

Additional observations from a re-analysis of the deposited data

How the results depend on the processing

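At an adjusted p under 0.05, the count among the 10 ligase and FOXO genes stayed at 0 under RLE, upper-quartile and library-size scaling. It was also 0 without the filter, with at least 10 counts in every mouse, with DESeq2, limma-voom and a robust fit. Over the fits that left out 1 mouse it ranged from 0 to 2 (2 without the MS13 Baf155WT mouse). The number with an unadjusted p under 0.05 was 0 under the same settings and ranged from 0 to 5. Both were 0 in the alternatives added after the data were seen, of which that without both MS15 mice has 1 Baf155WT mouse, assumed to vary like the Baf155ΔMF mice, and says nothing about stability. *Foxo1* and *Foxo3* kept their direction in all 17 alternatives. Once the prefix of the titles entered the fit, genotype was estimated from the MS13 mice alone (1 Baf155WT and 2 Baf155ΔMF mice). That fit therefore says as little about stability. In it the log2 fold change reversed, to 0.101 for *Trim63*, -0.0451 for *Trim54*, -0.0382 for *Trim55*, -0.0713 for *Fbxo40* and -0.0556 for *Foxo4*. The direction stayed for *Fbxo30* (0.015), *Fbxo32* (0.0074), *Fbxo31* (0.0466), *Foxo1* (0.110) and *Foxo3* (-0.126). Without both MS15 mice the log2 fold change reversed, to -0.23 for *Fbxo32*, -0.0415 for *Trim55*, -0.0983 for *Fbxo30*, -0.0169 for *Fbxo31*, -0.0912 for *Fbxo40* and -0.106 for *Foxo4*. It was 0.0563 for *Trim63* with the length trend removed and -0.0425 for *Fbxo31* with library size only. With 1 mouse left out it ranged from -0.11 to 0.37 for *Fbxo32*, from -0.13 to 0.15 for *Trim63*, from -0.0061 to 0.0973 for *Trim54* and from -0.031 to 0.0864 for *Fbxo31*. *Smarcc1* ranged from -1.59 to -1.36 there, and its adjusted p was 0.0616 without MS15-2, 0.0533 without MS13-1 and 0.0678 without MS13-2. Over all genes, the 3 calls at an adjusted p under 0.05 became 17 without the filter, 22 with DESeq2, 5 with limma-voom, 16 with the prefix, 16 without both MS15 mice, 7 with the length trend removed and from 0 to 955 with 1 mouse left out. The causes of these changes were not tested. No paired analysis was possible because no numbering in the labels pairs a Baf155WT with a Baf155ΔMF mouse. With 3 mice per genotype, the interval for *Fbxo32* runs from 0.735-fold to 1.64-fold, so changes of that size in either direction are not excluded. That interval rests on a standard error of 0.26 on the log2 scale from the main fit. The standard error was 0.36 in the robust fit and 0.41 with DESeq2, so larger changes are not excluded either. With the other scalings, the other filters and limma-voom it was 0.22 to 0.27.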
